A study of Mus musculus with 6 samples.

Results

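Prdm1 and Atg5 are adjacent protein-coding genes on mouse chromosome 10 that are transcribed towards each other. Around them lay 49 of the 69171 regions of open chromatin called in this study, 24 nearest to Prdm1 and 25 nearest to Atg5. The regions were selected on the called peaks themselves: overlapping peaks of the 6 libraries were merged, and a region belonged to the locus when its nearest protein-coding gene within 100 kb was Prdm1 or Atg5. The locus was also chosen with earlier results of these lists known, so every count below is a description of these libraries, set beside the share over all regions, and none is given a test.

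Prdm1 encodes Blimp-1, a zinc finger transcription factor that drives B cells to become antibody-secreting plasma cells and shuts down genes of the B cell programme. Its transcription is low in most B cells and high in plasma cells, under activators such as Irf4 and repressors such as Bcl6, Bach2 and Pax5. Atg5 encodes a protein that is joined to Atg12 and, with Atg16l1, attaches lipid to LC3 as autophagosomes grow. Autophagy is known to support the survival of antibody-secreting plasma cells in mice.

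The assay was ATAC-seq, which marks accessible DNA by letting a transposase insert sequencing adapters into it, and 2 libraries were made from each of 3 bone marrow populations sorted from naive Adig mice of the Balb/c strain. These mice carry a green fluorescent protein reporter for Aire, the regulator of tissue antigen expression in the thymus, and every population came from reporter mice. The pc-BMACs were AireGFP+B220-CD138+TACI+, the plasma cells AireGFP-B220-CD138+TACI+ and the immature B cells AireGFP-B220+CD138-TACI-IgM+. B220 marks B cells before terminal differentiation, and CD138 and TACI mark plasma cells. Age, sex and the number of mice behind a library are not given in the labels, and the 2 libraries of a population may or may not come from separate animals. A library started from 2000 to 15000 cells, so a region may be open in all cells of a population or in some of them, which cannot be told apart here.

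The lists held 38607 and 34070 peaks in pc-BMACs, with 37821 and 36723 in plasma cells, compared with 51643 and 46534 in immature B cells. Of 8 plasma cell marker genes, Prdm1 among them, all had a called region in both pc-BMAC and both plasma cell libraries, but so did 8 and 7 of them in immature B cells 1 and 2. Together these 8 genes had 48 and 46 regions in pc-BMACs, with 51 and 48 in plasma cells, compared with 50 and 45 in immature B cells. Single markers went different ways. The joining chain gene Jchain had 3 regions in each pc-BMAC and plasma cell library and 1 and 0 in immature B cells. Irf4 had 3 in each pc-BMAC and plasma cell library and 4 in each immature B cell library. The 8 immature B cell markers had 47 and 34 regions in pc-BMACs, with 50 and 53 in plasma cells, compared with 64 and 61 in immature B cells. Aire itself had 2 regions in every library. All 5 erythroid markers were called in plasma cells 1 and only Klf1 in each of the other libraries, while T cell markers had 9 to 15 regions, myeloid markers 4 to 7 and dendritic cell markers 14 to 26 per library. NK cell markers moved with the population, with 3 and 2 regions in pc-BMACs, with 8 and 7 in plasma cells, compared with 6 and 6 in immature B cells. Klrb1c had 3 and 2 in pc-BMACs, with 4 and 3 in plasma cells, compared with 5 and 5 in immature B cells, and Ncr1 had none in any library. Of the genes of cytotoxic granules among them, Prf1 had 0 and 0 in pc-BMACs, with 3 and 3 in plasma cells, compared with 1 and 1 in immature B cells. Gzma had 1 in each plasma cell library and 0 in the others. The part of other cells in the results at this locus was not tested.

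In RefSeq's annotation of GRCm38, the assembly that mm10 names, Atg5 (gene ID 11793) spans chr10:44268322-44364299 on the plus strand and Prdm1 (gene ID 12142) chr10:44437174-44528558 on the minus strand, with 72.9 kb between them. The start in the RefSeq promoter table lies at 44458748 for Prdm1, so 21.6 kb of the gene interval lie downstream of that start and 69.8 kb upstream of it. The interval between the genes holds the long non-coding RNA gene Gm35028 (chr10:44419957-44427988). Upstream of Prdm1 there is no other protein-coding gene for 538.7 kb, as far as Prep, and Crybg1 lies 119.5 kb beyond the Atg5 start. Exons are not part of the annotation used, and a region is placed only inside or outside a gene interval.

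Both promoters lay in regions called in all 6 libraries, and their sequences are shown because they are the regions at the gene starts, 2 of the 8 regions of the locus that every library had. Each line gives the 250 bases before the gene start, read in the direction of the gene, from RefSeq's GRCm38.p6 promoter table. For Prdm1 this is chr10:44458749-44458998 on the minus strand, and for Atg5 chr10:44268089-44268338 on the plus strand. Capitals mark matches to any of 10 short motifs on either strand.

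Prdm1: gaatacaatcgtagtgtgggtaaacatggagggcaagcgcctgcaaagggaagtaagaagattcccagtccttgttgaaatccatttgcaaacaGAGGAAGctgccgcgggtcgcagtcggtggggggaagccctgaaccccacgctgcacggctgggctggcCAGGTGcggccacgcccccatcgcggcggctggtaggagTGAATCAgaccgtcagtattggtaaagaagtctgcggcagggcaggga

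Atg5: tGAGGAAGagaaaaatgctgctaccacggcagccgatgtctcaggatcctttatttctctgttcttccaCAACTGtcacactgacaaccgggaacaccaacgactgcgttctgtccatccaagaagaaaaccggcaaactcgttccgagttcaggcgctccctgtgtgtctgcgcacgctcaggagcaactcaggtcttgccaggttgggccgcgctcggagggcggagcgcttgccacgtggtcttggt

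The Prdm1 window held a match to the AP-1 and BACH pattern TGANTCA 48 to 42 bases before the start. The E-box CAGNTG lay 87 to 82 bases and the PU.1 motif GAGGAAG 156 to 150 bases before it. Among 21238 such windows of protein-coding genes, 6.14% held the first of these, 42.1% the E-box and 10.3% the PU.1 motif. The first, which allows any base at N, matched as TGAATCA, and whether AP-1 or BACH proteins bind there was not tested. The Atg5 window held an E-box of the form CAGNTG, read on the opposite strand, 181 to 176 bases before the start. A PU.1 motif lay 249 to 243 bases before it. Other E-box forms were not searched for, such as CACGTG, which stands near the end of the printed Atg5 window. No match in either window was found for AGTGAAA (PRDM1 and IRF type, 3.52% of windows), the ETS-IRF composite GGAANTGAA (1.69%), TGTGGTT (RUNX, 3.82%), GGANTTTCC (NF-kB, 1.08%), TGACGTG (XBP1 and ATF, 1.77%), CCCNNGGG (EBF1, 13.5%) or TTCNNNGAA (STAT, 6.57%), which says only that these letters are not in the window. No motif overlapped another. The G and C content was 59.2% at Prdm1 and 56.4% at Atg5, against a median of 55.6% over the windows, and the ratio of observed to expected CpG was 0.71 and 0.86, against a median of 0.53. The sequences of the other regions of the locus are not shown here, since no genome sequence was used.

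The promoter region of Prdm1 (chr10:44457926-44459348) was covered by peaks over 1276 and 1251 bp in pc-BMACs, with 1103 and 1149 bp in plasma cells, compared with 1363 and 797 bp in immature B cells. The promoter region of Atg5 (chr10:44267637-44268912), which also overlaps the non-coding gene Gm40637, was covered over 1159 and 1223 bp in pc-BMACs, with 956 and 974 bp in plasma cells, compared with 1177 and 908 bp in immature B cells. At both promoters the plasma cell values lay below those of pc-BMACs, and the immature B cell values had one library above and one below both plasma cell values. Plasma cells were also below pc-BMACs over all 20468 regions called in every library. The median covered length there was 907 and 767 bp in pc-BMACs, with 711 and 701 bp in plasma cells, compared with 1034 and 767 bp in immature B cells. A peak at the Prdm1 promoter was thus called in immature B cells as well as in both CD138+ populations.

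With the promoter regions counted in, the populations differed in how many regions they had. The order at Prdm1 below holds for the nearest gene interval within 100 kb, and counts per library were not taken under other assignments. Population-only counts at Prdm1 changed by nearest gene start and within 50 kb, as given further on. Atg5 had 15 and 14 called regions in pc-BMACs, with 16 and 16 in plasma cells, compared with 9 and 8 in immature B cells. Prdm1 had 13 and 12 in pc-BMACs, with 12 and 11 in plasma cells, compared with 14 and 16 in immature B cells. At Atg5 both CD138+ populations lay above immature B cells in every library although the immature B cell lists are the longest, and at Prdm1 immature B cells lay above both. The means were 14.5 ± 0.71, 16.0 ± 0.0 and 8.5 ± 0.71 regions at Atg5 and 12.5 ± 0.71, 11.5 ± 0.71 and 15.0 ± 1.41 at Prdm1 for pc-BMACs, plasma cells and immature B cells (SD, n = 2 each).

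By covered length, both CD138+ populations again lay above immature B cells at Atg5, and the order at Prdm1 was less clear. Peaks at Atg5 covered 12948 and 10978 bp in pc-BMACs, with 11658 and 11402 bp in plasma cells, compared with 5786 and 3934 bp in immature B cells. At Prdm1 they covered 8.5 and 6.0 kb in pc-BMACs, with 5.4 and 5.8 kb in plasma cells, compared with 9.7 and 6.1 kb in immature B cells, so that pc-BMACs and immature B cells overlapped. Agreement between libraries was below that of the whole lists in plasma cells and slightly above it in the other populations. Of the regions called in either library, both had 24 of 30 (80.0%) in pc-BMACs, 22 of 33 (66.7%) in plasma cells and 21 of 26 (80.8%) in immature B cells, against 76.7%, 76.3% and 77.0% over all regions.

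**Figure D1:**
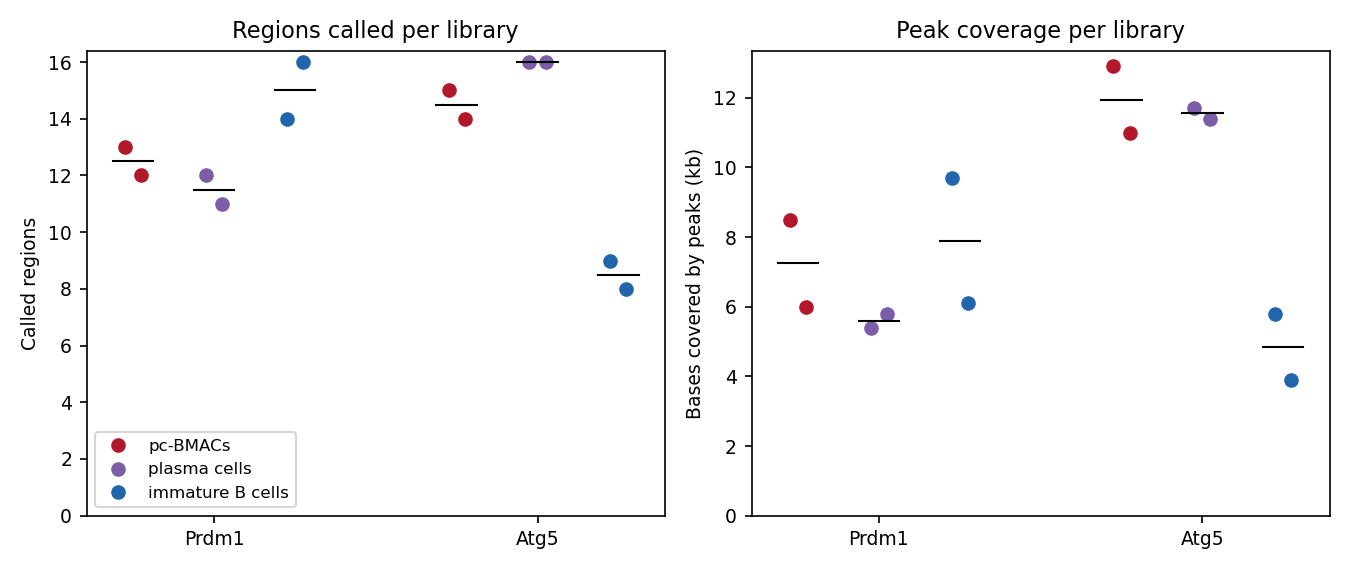
Regions called (left panel) and kilobases covered by peaks (right panel) at Prdm1 and Atg5, with 1 point per library and a bar at the mean of the 2 libraries. At Atg5 the pc-BMAC and plasma cell points lie at 14 to 16 regions and the immature B cell points at 8 and 9, while at Prdm1 the immature B cell points are the highest, at 14 and 16. The counts are not scaled to the length of the lists, which are longest in immature B cells.

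The largest class of population-specific regions was shared by pc-BMACs and plasma cells. Called in both libraries of each and in neither immature B cell library were 8 of the 49 regions, 7 of them at Atg5 (28.0%) and 1 at Prdm1 (4.17%), against 3.66% of all regions. Of the 15286 genes with a region, 1 had more regions of this kind than Atg5, and of the 354 genes with 20 or more regions 1, Cbfa2t3, had a higher share. These ranks apply to the nearest gene interval. By nearest gene start Atg5 had 4 such regions, and no rank was taken under that rule. The 8 regions of the locus were also wide: their median width was 1124.5 bp, against 634 bp for all 2529 regions with this pattern.

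No other complete pattern held more than 8 regions. Calls in all 6 libraries were made at 8 regions, 5 at Prdm1 and 3 at Atg5 (16.3% of the locus, against 29.6% of all regions). Regions of immature B cells alone numbered 6, 2 at Prdm1 and 4 at Atg5 (12.2%, against 14.3%). The 3 regions of pc-BMACs alone were all at Prdm1 (6.12% of the locus, against 4.42%) and the 3 of plasma cells alone all at Atg5 (6.12%, against 1.5%). Neither placing held without every library: Atg5 had 2 regions of pc-BMACs alone without plasma cells 1 and 2 without pc-BMACs 2, and Prdm1 had 2 of plasma cells alone without plasma cells 1 and 1 without immature B cells 1. Plasma cells and immature B cells without pc-BMACs shared 2 regions (4.08%, against 4.88%), and pc-BMACs and immature B cells without plasma cells shared 1 (2.04%, against 1.06%), all at Prdm1. The remaining 18 regions (36.7%, against 40.6%) were called in 1 library of at least 1 population and not in the other.

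**Figure D2:**
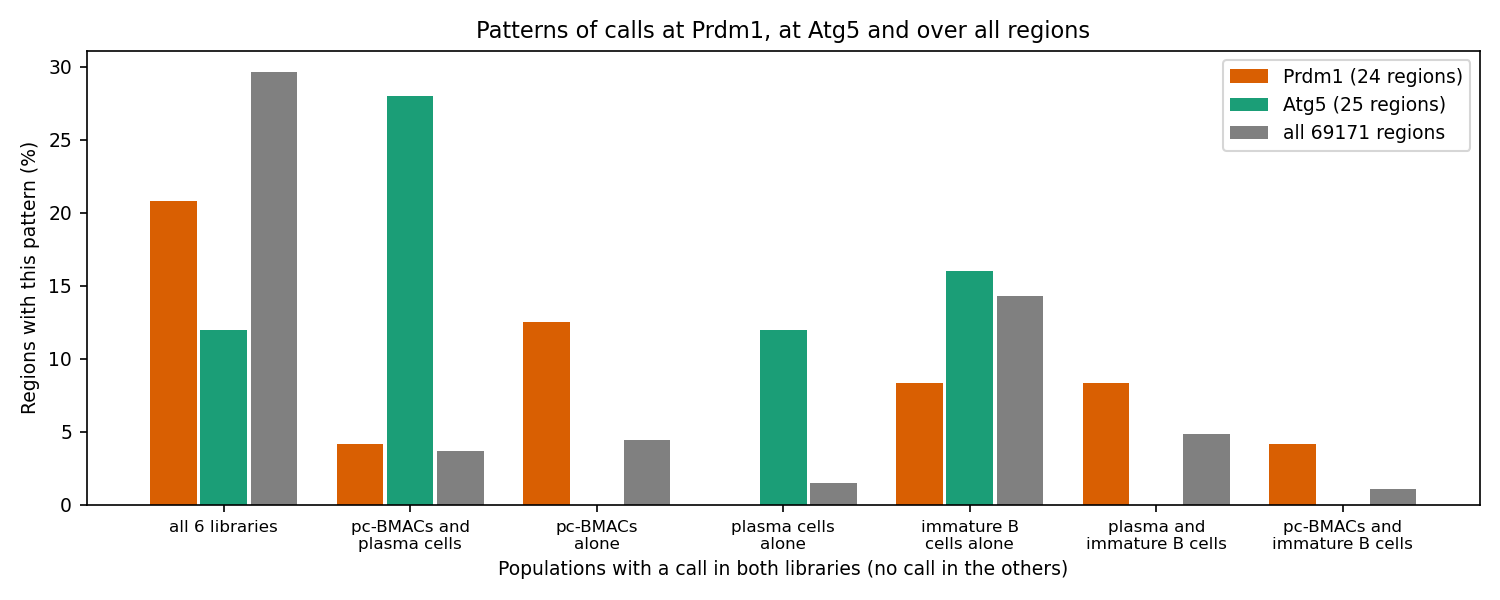
Share of regions (percent) in each pattern of calls at Prdm1 (24 regions), at Atg5 (25 regions) and over all 69171 regions. The bar of Atg5 for regions of pc-BMACs and plasma cells stands at 28.0% beside 3.66% over all regions, and Prdm1 has 12.5% of its regions in pc-BMACs alone.

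Compared with immature B cells, pc-BMACs had 13 regions of their own at the locus (called in both libraries of one population and neither of the other) and immature B cells 10. The 13 were 26.5% of the locus, against 9.78% of all regions, and the 10 were 20.4%, against 22.9%. Plasma cells had 11 regions that immature B cells lacked (22.4%, against 5.7%), and immature B cells 8 that plasma cells lacked (16.3%, against 17.1%). Atg5 held 9 of the 13 and 10 of the 11. Its 10 plasma-cell-only regions made up 40.0% of its regions, the highest share among the 354 genes with 20 or more regions, whose median was 5.51%. By nearest gene start they were 6, and no rank was taken under that rule. The shares on the immature B cell side were close to those over all regions.

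Between pc-BMACs and plasma cells the locus was nearly balanced. There were 4 pc-BMAC-only regions (8.16%, against 6.1% of all regions) and 5 plasma-cell-only regions (10.2%, against 6.85%). All 4 were at Prdm1, while 3 of the 5 were at Atg5, but the placing of the 4 did not hold without every library: Atg5 had 3 pc-BMAC-only regions without plasma cells 1 and 2 without pc-BMACs 2, and 1 where peaks had to cover 50% of a region. These counts depended on single libraries, since a call in every library of a population is a weaker demand on 1 library: without plasma cells 1 they were 7 and 9, and without pc-BMACs 2 the first was 7. Regions of pc-BMACs alone were 5 without pc-BMACs 2 and 5 without plasma cells 1, regions of plasma cells alone were 7 without plasma cells 1, and those of plasma cells and immature B cells were 4 without plasma cells 2. Those of pc-BMACs and immature B cells were 2 without pc-BMACs 2 and 2 without plasma cells 1. Without plasma cells 1, the library with all 5 erythroid markers, the regions shared by pc-BMACs and plasma cells were 8. Those of plasma cells against immature B cells were then 15. Regions that met the demand with that library also meet the weaker demand without it, so these counts do not show what the library contributed.

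The regions that the CD138+ populations had and immature B cells lacked lay between the gene starts. Between the Atg5 start and the Prdm1 start, 190.4 kb apart, lay 32 regions apart from the promoter regions, of which pc-BMACs had 20 and 19, plasma cells 17 and 18, and immature B cells 10 and 9. All 13 pc-BMAC-only and all 11 plasma-cell-only regions relative to immature B cells were among these 32. Upstream of the Prdm1 start lay 14 regions of the locus, of which pc-BMACs had 6 and 5, plasma cells 9 and 7, and immature B cells 10 and 12. In those 14 regions, none was called in both libraries of a CD138+ population and neither of immature B cells. Few or none of 14 would be at the shares over all regions, 9.78% for pc-BMACs and 5.7% for plasma cells. Immature B cells had 5 of the 14 that pc-BMACs lacked, against 22.9% of all regions. They had 2 that plasma cells lacked, against 17.1%, and 14 regions are few for a share. Peaks covered 16.7 and 12.9 kb in pc-BMACs, with 12.2 and 12.3 kb in plasma cells, compared with 5.9 and 3.8 kb in immature B cells between the starts, but 2.3 and 1.6 kb, 2.8 and 2.7 kb, and 6.9 and 4.3 kb upstream, in the same order of populations.

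**Figure D3:**
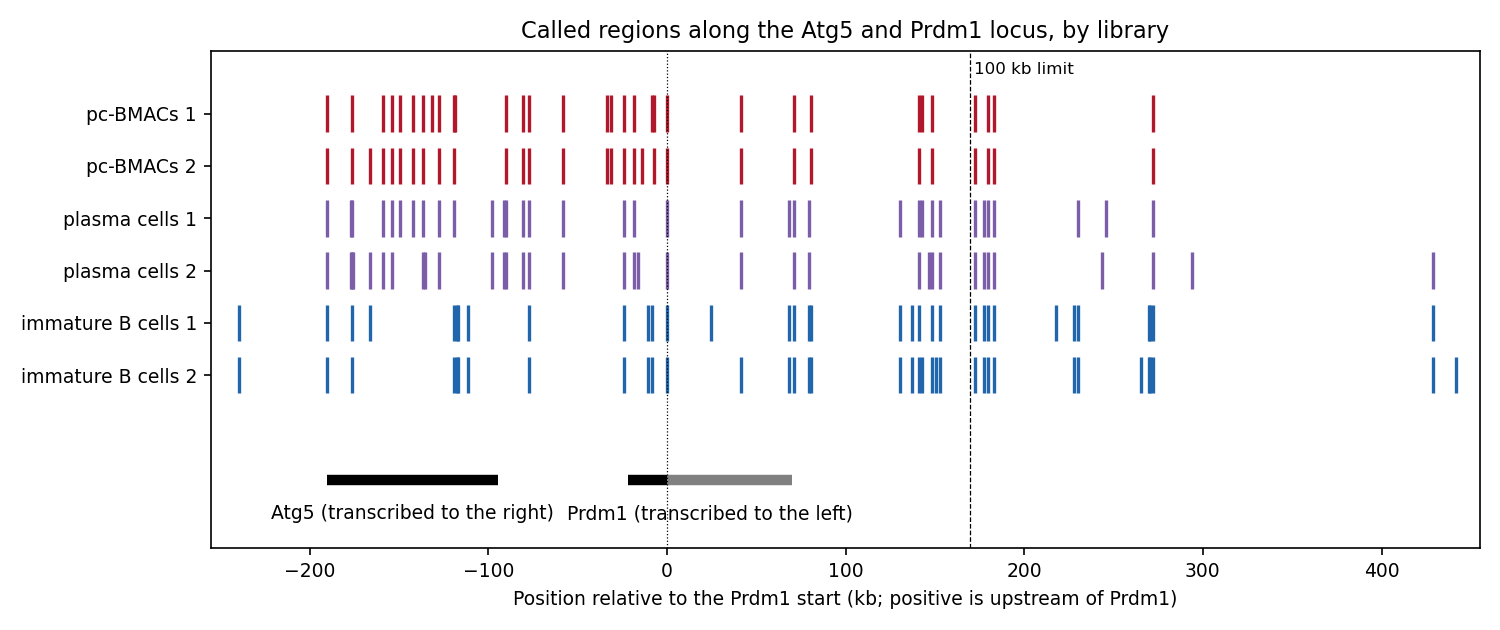
Called regions in each library (rows) by distance from the Prdm1 start in kb (horizontal axis, positive upstream of Prdm1), with the gene intervals below; the grey part of Prdm1 lies upstream of its start. Inside Atg5, a stretch of 32.3 kb holds marks in the pc-BMAC and plasma cell rows and none in the immature B cell rows, and upstream of the Prdm1 start, to the right of 0, immature B cells have 10 and 12 of the 14 regions within the limit.

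Inside Atg5, 8 consecutive regions over 32.3 kb (chr10:44298997-44331312) had no call in either immature B cell library. In this stretch pc-BMACs had 7 and 6 of the 8 regions and plasma cells 6 and 5, and the nearest regions called in an immature B cell library on its sides were 46.8 kb apart. Of its regions, 4 were called in all 4 CD138+ libraries.

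The widest of them, at chr10:44321283-44322591, was covered over 1309 and 1163 bp in pc-BMACs and 1293 and 1148 bp in plasma cells. Those at chr10:44298997-44300097 and chr10:44304434-44305420 were covered over 955 and 892 bp and over 869 and 916 bp in pc-BMACs, against 1101 and 1084 bp and 981 and 948 bp in plasma cells. The region at chr10:44330594-44331312 was covered over 706 and 610 bp in pc-BMACs and 420 and 491 bp in plasma cells. At the first of these the ranges of the CD138+ populations overlapped, at the next pair plasma cells lay above pc-BMACs, and at the last pc-BMACs lay above plasma cells.

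A pair of regions in the same stretch was called in pc-BMACs and in plasma cells 1 but not in plasma cells 2. At chr10:44316139-44317040 peaks covered 902 and 583 bp in pc-BMACs and 150 bp, the narrowest width in any list, in plasma cells 1. At chr10:44309267-44309744 they covered 383 and 476 bp in pc-BMACs and 263 bp in plasma cells 1. At both, the pc-BMAC peaks were wider than the single plasma cell peak.

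Further along Atg5 the order turned. At 3 regions near each other, chr10:44340840-44341353, chr10:44341593-44342301 and chr10:44347381-44347777, only immature B cells had calls, with 514 and 269, 709 and 325, and 272 and 397 bp covered in immature B cells 1 and 2. Just before them, chr10:44339338-44339743 was covered over 150 and 193 bp in pc-BMACs, 150 bp in plasma cells 1 and 406 and 327 bp in immature B cells, and was not called in plasma cells 2. Immature B cells alone also had the region at chr10:44219144-44219381, 48941 bp before the Atg5 interval inside the pseudogene Speer5-ps1.

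Plasma cells alone had 3 regions, all at Atg5, or 2 at Atg5 and 1 at Prdm1 by nearest gene start. Their median width was 334 bp, against 303 bp for all 1041 regions of plasma cells alone. They lay at chr10:44281904-44282237 (196 and 277 bp covered), chr10:44360681-44360969 (228 and 278 bp) and chr10:44367015-44367445 (320 and 431 bp). The first stood beside a region called in all 6 libraries, at chr10:44282309-44282751, and the last just before a region shared with pc-BMACs.

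The 72.9 kb between the genes held 8 regions, of which each pc-BMAC library had 7, each plasma cell library 6 and each immature B cell library 2. The largest region of the locus was here, at chr10:44380223-44382330, 77.5 kb downstream of the Prdm1 start. It was covered over 2100 and 2047 bp in pc-BMACs, with 2079 and 1966 bp in plasma cells, compared with 1910 and 1124 bp in immature B cells, so it was called in every library and widest in pc-BMACs 1.

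Around it lay 3 regions that immature B cells lacked. The one at chr10:44399890-44401432, 58.1 kb downstream of the Prdm1 start, was covered over 1543 and 1285 bp in pc-BMACs and 1521 and 1501 bp in plasma cells. The one at chr10:44377598-44378745 was covered over 1148 and 588 bp in pc-BMACs and 1040 and 611 bp in plasma cells. The one at chr10:44368397-44369043 was covered over 614 and 469 bp in pc-BMACs and 543 and 560 bp in plasma cells. At each of the 3 the pc-BMAC and plasma cell ranges overlapped.

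Nearer to Prdm1, pc-BMACs alone had a pair of narrow regions inside the non-coding gene Gm35028, at chr10:44425139-44425380 (237 and 231 bp covered) and chr10:44427461-44427737 (277 and 189 bp), 33.5 and 31.1 kb downstream of the Prdm1 start. A region at chr10:44434432-44435141, 2033 bp past the end of Prdm1, was called in all 6 libraries, over 570 and 431 bp in pc-BMACs, with 361 and 341 bp in plasma cells, compared with 603 and 365 bp in immature B cells.

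In the 21.6 kb from the end of Prdm1 to its start, 0 of 6 regions apart from the promoter were called in all libraries. Over all regions the share was 29.6%, and 6 regions are few for a share. The third region of pc-BMACs alone was here and was the widest of its class, at chr10:44450855-44452188, 7.2 kb downstream of the start, with 1334 and 799 bp covered in pc-BMACs and no call in the other 4 libraries. Its neighbour at chr10:44449590-44450620 was covered over 1031 bp in pc-BMACs 1, 376 bp in immature B cells 1 and 280 bp in immature B cells 2, and was not called in pc-BMACs 2 or in plasma cells. Immature B cells alone had chr10:44447980-44448484 (505 and 341 bp).

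The region here that pc-BMACs and plasma cells shared lay at chr10:44439603-44441256, 18.3 kb downstream of the start, and was covered over 1504 and 652 bp in pc-BMACs and 1112 and 634 bp in plasma cells. Each of 2 other wide regions was called in 1 library: chr10:44442030-44442946 in plasma cells 2 (917 bp) and chr10:44444483-44445340 in pc-BMACs 2 (858 bp). These widths show that a region called in a single library of the locus was not always a narrow one. Of the 18 regions with an incomplete pattern, 9 were called in 1 library, 4 of them in plasma cells 2, 2 in pc-BMACs 1 and 1 each in pc-BMACs 2, immature B cells 1 and immature B cells 2, with 150 to 917 bp covered. Of those called in several, chr10:44292237-44292573 had 201 bp in pc-BMACs 2, 200 bp in plasma cells 2 and 150 bp in immature B cells 1, and chr10:44601604-44601920 had 239 bp in pc-BMACs 1, 317 bp in plasma cells 1 and 150 bp in immature B cells 2. At chr10:44500148-44500426 all libraries but immature B cells 1 had a call, of 150 to 266 bp.

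**Figure D4:**
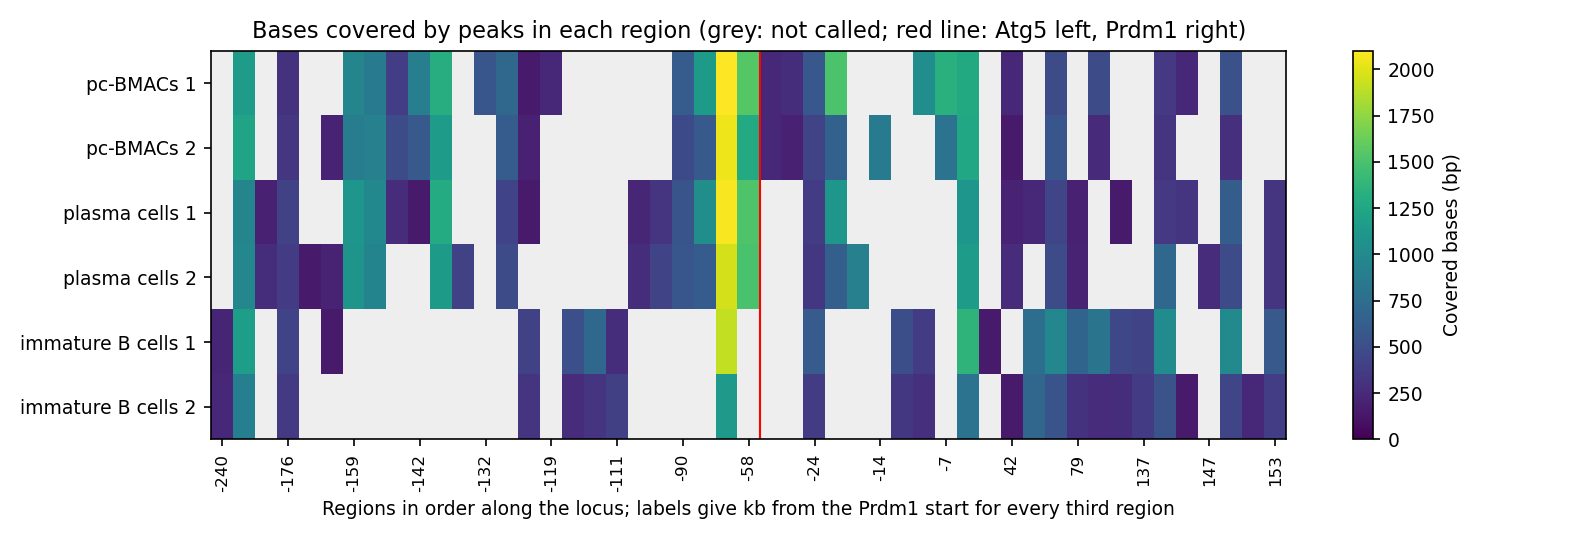
Bases covered by peaks (colour, bp) in the 49 regions in order along the locus (columns) for each library (rows), with grey where no peak was called. The 8 regions of pc-BMACs and plasma cells appear as columns coloured in the upper 4 rows and grey in the lower 2, and the region of 2100 and 2047 bp in pc-BMACs is the brightest column.

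Upstream of the Prdm1 start immature B cells 1 often had the widest coverage. Over all regions called in every library, the median of immature B cells 1 was also the highest, at 1034 bp. The region at chr10:44526800-44527563 was covered over 230 bp in plasma cells 1 and 759 and 693 bp in immature B cells, and not called in pc-BMACs or plasma cells 2. That at chr10:44589250-44589703 was covered over 150 bp in plasma cells 1 and 454 and 273 bp in immature B cells, again with no other call. Both had their widest coverage in immature B cells, which alone had chr10:44595888-44596317 (430 and 366 bp). A pair of neighbours near 80 kb upstream differed between the CD138+ populations. At chr10:44537720-44538396 plasma cells had 191 and 208 bp and immature B cells 677 and 308 bp, with no call in pc-BMACs. At chr10:44538694-44539537 pc-BMACs had 481 and 256 bp and immature B cells 810 and 269 bp, with no call in plasma cells.

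Of the 14 upstream regions, 3 were called in all 6 libraries. That at chr10:44529218-44530190, 660 bp past the Prdm1 interval, was covered over 489 and 564 bp in pc-BMACs, with 439 and 491 bp in plasma cells, compared with 973 and 545 bp in immature B cells. The others, at chr10:44599324-44600340 and chr10:44606787-44607786, lay in the non-coding gene Gm35154, where 6 of the 14 regions were. They were covered over 351 and 321 bp and over 521 and 290 bp in pc-BMACs, 350 and 711 bp and 622 and 487 bp in plasma cells, and 1017 and 534 bp and 1000 and 437 bp in immature B cells.

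The 100 kb limit fell among regions of the same kind. The last region inside it, chr10:44611329-44611914, 82771 bp past the Prdm1 interval, was covered over 317 and 316 bp in plasma cells and 586 and 383 bp in immature B cells, and was not called in pc-BMACs. The next, chr10:44630238-44632398, lay 101680 bp away and was called in all 6 libraries, covering 1368 and 980 bp in pc-BMACs, with 768 and 703 bp in plasma cells, compared with 2161 and 320 bp in immature B cells. From there to 100 kb before Prep lay 16 regions assigned to no gene, of which pc-BMACs had 4 and 4, plasma cells 7 and 8, and immature B cells 11 and 12. None of these 16 was called in both libraries of a CD138+ population and neither of immature B cells, as upstream of Prdm1 within the limit. At the shares over all regions, 9.78% for pc-BMACs and 5.7% for plasma cells, few or none of 16 would be.

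Which gene a region is counted under depended on the assignment. By the nearest gene start in place of the nearest gene interval, Prdm1 had 21 regions and Atg5 20, and the regions shared by pc-BMACs and plasma cells were 4 at Prdm1 and 4 at Atg5 in place of 1 and 7. Plasma-cell-only regions relative to immature B cells became 5 at Prdm1 and 6 at Atg5, in place of 1 and 10, and pc-BMAC-only regions 7 and 6, in place of 4 and 9. Immature-B-only regions at Prdm1 became 3 relative to pc-BMACs, in place of 6, and 3 relative to plasma cells, in place of 4, so that at Prdm1 both CD138+ populations then had more regions of their own than immature B cells. With the limit at 50 kb, Prdm1 had 4 pc-BMAC-only and 3 immature-B-only regions, also the reverse of the 4 and 6 within 100 kb, and 1 plasma-cell-only and 3 immature-B-only regions. At Atg5 the CD138+ side was the larger under each of these rules, with 4 immature-B-only regions in each comparison. The peak lists do not say which gene a region acts on, and a region without a call is not shown to be closed.

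Genes that act with Prdm1 were compared in the same way, with a list of 16 genes that had 214 regions. In the comparison of pc-BMACs with immature B cells, 5 genes had more pc-BMAC-only and 9 more immature-B-only regions, and over all 15286 genes 14.1% and 36.4% did. For plasma cells, 3 genes had more plasma-cell-only and 11 more immature-B-only regions, against 9.46% and 33.8% of all genes. Both comparisons share the immature B cell libraries. The median net count of the list was -1 in both comparisons, against 0 over all genes, with a median of 8 regions per list gene against 3.

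Among the repressors of Prdm1, Bach2 had 25 and 13 regions in pc-BMACs, with 27 and 24 in plasma cells, compared with 44 and 32 in immature B cells. Pax5, which keeps B cell identity, had 7 and 5 regions in pc-BMACs, with 10 and 8 in plasma cells, compared with 15 and 14 in immature B cells. Ell2, an elongation factor induced by Blimp-1, had 16 and 14 in pc-BMACs, with 10 and 7 in plasma cells, compared with 5 and 4 in immature B cells. Bach2 and Pax5 thus had their highest counts in immature B cells and Ell2 in pc-BMACs. The other repressors did not all follow Bach2 and Pax5: Mitf had 6 and 4 regions in pc-BMACs, with 2 and 2 in plasma cells, compared with 4 and 3 in immature B cells, Spib had 1 in every library, and Bcl6 had 3 and 4 in pc-BMACs, with 4 and 4 in plasma cells, compared with 6 and 6 in immature B cells. The activator Irf4 had 3 regions in each pc-BMAC and plasma cell library and 4 in each immature B cell library, and Tcf12, an E protein, had 21 and 20 in pc-BMACs, with 13 and 16 in plasma cells, compared with 21 and 19 in immature B cells. Between pc-BMACs and plasma cells 3 genes of the list had more pc-BMAC-only and 4 more plasma-cell-only regions, against 14.2% and 15.5% of all genes.

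**Figure D5:**
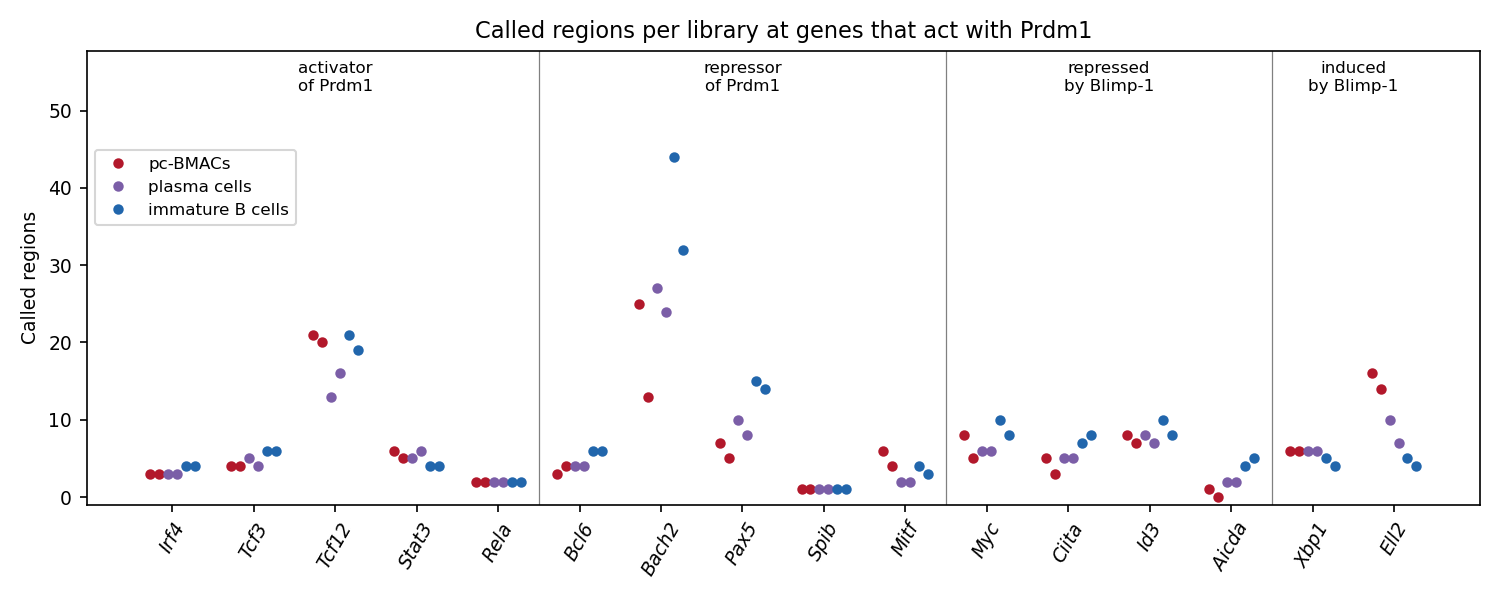
Called regions (vertical axis) in each library at 16 genes that regulate Prdm1 or are regulated by Blimp-1, grouped by role, with 1 point per library. Bach2 has the most regions, 13 to 27 in the pc-BMAC and plasma cell libraries and 44 and 32 in immature B cells, and Ell2 has 16 and 14 in pc-BMACs and 5 and 4 in immature B cells.

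In the comparisons with immature B cells, the other autophagy genes were near the shares of all genes. Of 28 further genes, 25 had a region, of which 3 had more pc-BMAC-only and 11 more immature-B-only regions (12% and 44.0%, against 14.1% and 36.4% of all genes). For plasma cells, 3 had more plasma-cell-only and 7 more immature-B-only regions (12% and 28.0%, against 9.46% and 33.8%). Their 114 regions included 7 shared by pc-BMACs and plasma cells, as many as Atg5 alone had in 25, and whether the share of Atg5 differs from theirs was not tested. Atg7, the enzyme that activates Atg12 and LC3, had 16 and 12 regions in pc-BMACs, with 7 and 10 in plasma cells, compared with 10 and 8 in immature B cells. Atg10, which transfers Atg12 to Atg5, had 6 and 6, 8 and 9, and 12 and 10 in the same order, and the protease gene Atg4c 3 and 1, 3 and 2, and 7 and 7. Atg12 and Atg16l1, whose products work in 1 complex with Atg5, had 2 and 5 regions in all.

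Within the PRDM family, Prdm1 had the most regions. All 14 listed relatives that the annotation used gives as protein-coding genes had a region, 58 in all, of which 3 were shared by pc-BMACs and plasma cells, and Zfp683 could not be assigned any. Of the 14, 1 had more pc-BMAC-only and 8 more immature-B-only regions (7.14% and 57.1%, against 14.1% and 36.4% of all genes). For plasma cells, 1 had more plasma-cell-only and 7 more immature-B-only regions (7.14% and 50.0%, against 9.46% and 33.8%). Prdm15 had 9 and 7 regions in pc-BMACs, with 6 and 5 in plasma cells, compared with 4 and 5 in immature B cells, while Prdm2 had 14 and 9, 9 and 11, and 12 and 11, and Prdm11 2 and 2, 1 and 1, and 4 and 4.

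As a description over the 6 libraries, the region counts of Prdm1 were most like those of Eea1, Map3k5, Lpp and Ptpn1 (Pearson's r 0.977 to 0.916) among genes with 20 or more regions. Those of Atg5 were most like Gm4606, Mef2a, Cbfa2t3, Nek7 and Zmynd8 (r 0.981 to 0.848). Library length enters both: the counts of Prdm1 had r = 0.749 and those of Atg5 r = -0.859 with the number of regions called in each library.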

How the data were processed

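The 6 deposited files are lists of ATAC-seq peaks, 1 per library, and hold positions on mm10 together with a score that the authors set to the same value for every peak, so no signal or depth is known and a width is the only size of a peak. The lists are named as intersected peaks, and what was intersected is not stated. Per the submitters' processing notes, the tools were Bowtie2 2.3.3, HOMER 4.10 and bedtools and the build mm10; which tool did what and the settings of peak calling were not given. From the lists, peaks overlapping by 1 bp were merged over the 6 libraries in Python 3.11.15 (pandas 2.3.3, numpy 2.4.6). The merging was checked against bedtools 2.31.1. A merged region was called in a library when a peak of it overlapped the region by 1 bp or more, and went to the nearest protein-coding gene interval of RefSeq (GRCm38.p6) within 100 kb. Where intervals overlap, the gene whose end is nearest to the middle of the region was taken, which touched no region of Prdm1 or Atg5. A region was counted for one population against another when called in both libraries of the first and neither of the second. The steps were tested on simulated data. The members, gene lists and motifs were chosen with earlier results of these data known. Named were Prdm1, Atg5, their regions and neighbours, the list genes with the most population-only regions with others of known role, and the 5 genes with 20 or more regions most alike in count, of which 1 for Prdm1 is not reported here. Alternatives were another gene assignment, a 50 kb limit, merging across 200 bp, 50% coverage, the widest peaks only and leaving out each library.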

Additional observations from a re-analysis of the deposited data

How the results depend on the processing

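With only the widest peaks of each list kept, 17035 per library, Prdm1 had 11 regions and Atg5 10. At the locus this left 2 regions of pc-BMACs against plasma cells, 2 of plasma cells against pc-BMACs, 1 of immature B cells against pc-BMACs, 7 of plasma cells against immature B cells and 0 of immature B cells against plasma cells. It also left 3 regions called in all libraries, 1 of plasma cells alone, 0 of immature B cells alone, 0 of plasma cells with immature B cells and 0 of pc-BMACs with immature B cells. The regions of pc-BMACs against immature B cells were then 9 and those shared by pc-BMACs and plasma cells 6. With 50% of a region's length to be covered, regions called in all libraries were 4, those of plasma cells with immature B cells 1 and those of pc-BMACs with immature B cells 0. A 50 kb limit and the nearest gene start each left 1 region of plasma cells with immature B cells. Merging across 200 bp and keeping 34070 peaks per list left all 15 counts within 1.5 times.

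A population left with 1 library has a weaker demand to meet, so the counts by population could rise more readily than fall. Leaving out 1 library at a time gave 22 to 24 regions at Prdm1 and 23 to 25 at Atg5. It gave 4 to 7 regions of pc-BMACs against plasma cells and 5 to 9 the other way, 13 to 15 of pc-BMACs against immature B cells and 10 to 11 the other way, and 11 to 15 of plasma cells against immature B cells and 8 to 11 the other way. Called in all libraries were 8 to 9, shared by pc-BMACs and plasma cells 8 to 10, in pc-BMACs alone 3 to 5, in plasma cells alone 3 to 7, in immature B cells alone 6 to 8, in plasma cells with immature B cells 2 to 4 and in pc-BMACs with immature B cells 1 to 2. No paired analysis was possible because any 2 populations share only 1 of the R numbers in their descriptions, and these do not follow the replicate numbers of the titles. The lists give no read depth.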
